A study of Mus musculus with 2 samples.

Results

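By the rule given next, 63 of the 8608 barcodes kept in the CD45+ library were called brain neutrophils (0.732%, 95% Clopper-Pearson interval 0.563 to 0.935%). They were chosen by their own transcripts: at least 10 UMIs of S100a8 and S100a9 together, and fewer than 50 UMIs of C1qa, C1qb and C1qc per 10000 UMIs, in barcodes with at least 500 UMIs and at most 20% mitochondrial UMIs. A UMI is a unique molecular identifier, a tag that stands for 1 captured transcript molecule, and a barcode marks 1 droplet. S100a8 and S100a9 encode the subunits of calprotectin, the most abundant cytosolic protein pair of neutrophils, and the C1q genes are strongly expressed by microglia. Because the rule uses these transcripts, every comparison of the chosen barcodes with the rest of the library is a description and no test was made on it.

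The series profiled brain cells of C57BL mice aged 8 to 13 weeks, 24 h into an NMOSD-like model, as 1 CD45+ library and 1 CD45- library. NMOSD is neuromyelitis optica spectrum disorder, in which antibodies against the astrocyte water channel aquaporin-4 lead to complement activation and leukocyte entry, and CD45 is the surface protein shared by leukocytes. The tissue was minced and digested with enzymes before droplets were formed with 10x Genomics v3 chemistry, which reads 3' ends. Both libraries carry the model, no untreated library was analysed here, and the sources used here do not give the number of mice, the use of perfusion or how CD45+ and CD45- cells were parted, so the values describe neutrophils at 24 h and not a response.

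Neutrophils are short-lived granulocytes made in the bone marrow. Their granule proteins are transcribed in sequence by precursors, primary granules first, then secondary and tertiary granules, and these transcripts are largely gone once the cell leaves the marrow. Mature cells instead carry the receptors CSF3R and CXCR2, low total RNA and few mitochondria, and after activation in tissue they transcribe a narrow set of cytokines and chemokines such as Il1b and Cxcl2. In neuromyelitis optica, neutrophils are known among the early infiltrating leukocytes.

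The promoters of 5 genes are shown because the transcripts below fall into a calprotectin pair, a granule group and a chemokine group, and the letters upstream of each start can be set beside that grouping. Sequences are from RefSeq on GRCm38.p6, 5' to 3' on the strand of the gene, and stop where the annotated gene of GENCODE M21 begins. S100a8 is shown for chr3:90668821-90668977 on the plus strand, S100a9 for chr3:90695722-90695971 on the minus strand, Ngp for chr9:110419558-110419746 on the plus strand, Ltf for chr9:111019042-111019270 on the plus strand and Cxcl2 for chr5:90903649-90903870 on the plus strand. Capitals mark matches, on either strand, to a C/EBP motif (TTNNGNAA), a PU.1 motif (GAGGAA) or an NF-kB motif (GGGNN followed directly by TTTCC).
S100a8: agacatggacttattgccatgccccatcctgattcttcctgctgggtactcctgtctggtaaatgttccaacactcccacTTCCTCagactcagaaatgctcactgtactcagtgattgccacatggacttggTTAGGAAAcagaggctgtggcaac
S100a9: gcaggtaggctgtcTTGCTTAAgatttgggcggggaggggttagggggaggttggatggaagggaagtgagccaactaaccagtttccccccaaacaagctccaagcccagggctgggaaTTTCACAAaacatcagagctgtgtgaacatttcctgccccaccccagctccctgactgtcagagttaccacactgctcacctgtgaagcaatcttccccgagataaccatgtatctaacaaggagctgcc
Ngp: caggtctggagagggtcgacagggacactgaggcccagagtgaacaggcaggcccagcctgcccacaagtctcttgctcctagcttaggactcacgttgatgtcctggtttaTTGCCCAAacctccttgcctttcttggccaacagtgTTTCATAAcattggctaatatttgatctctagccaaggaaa
Ltf: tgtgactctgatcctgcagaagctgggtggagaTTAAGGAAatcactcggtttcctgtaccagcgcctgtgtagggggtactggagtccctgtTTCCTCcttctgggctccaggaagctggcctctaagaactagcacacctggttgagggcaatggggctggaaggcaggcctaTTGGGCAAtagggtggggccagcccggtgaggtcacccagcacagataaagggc
Cxcl2: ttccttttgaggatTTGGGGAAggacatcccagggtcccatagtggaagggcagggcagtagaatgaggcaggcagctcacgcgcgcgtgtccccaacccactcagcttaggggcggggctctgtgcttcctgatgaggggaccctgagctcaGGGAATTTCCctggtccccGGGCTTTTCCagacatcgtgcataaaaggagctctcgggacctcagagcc
C/EBP and PU.1 are factors of granulocyte differentiation, and NF-kB is the main factor of inflammatory transcription. Of 27025 promoters of 250 bases, 36.9% held the C/EBP motif, 23.1% the PU.1 motif and 1.40% the NF-kB motif. The search covered 250 bases before the RefSeq start. S100a8 had 1 C/EBP and 2 PU.1 matches, of which the PU.1 match 36 bases before the start lies past the stretch shown. S100a9 had 2 C/EBP matches, Ltf had 2 C/EBP matches and 1 PU.1 match, and Ngp had 3 C/EBP matches, of which the one 11 bases before the start is not shown. Cxcl2 had 1 C/EBP match and 2 NF-kB matches, 97 and 78 bases before its start. Camp was searched as well and held none of the 3 motifs. The matches describe these letters, and no pair of them overlapped.

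T cell barcodes here are the 2554 under both limits with at least 3 UMIs of T cell receptor and CD3 genes. Monocyte-derived barcodes are the 366 under both limits with at least 5 UMIs of Arg1, Chil3, Ccr2, F13a1 and Ly6c2 together and without T or NK cell markers. The 63 barcodes were small in RNA and low in mitochondrial transcripts. They held 340378 of the library's 76182401 UMIs, with a lowest, median and highest depth of 575, 3616 and 36296 UMIs, against a median of 6192 UMIs in the 8545 other kept barcodes. Mitochondrial UMIs made up a median of 0.213% of each neutrophil barcode and 1.60% of each other barcode, and 41 of the 63 lay under 0.5%. After each barcode was thinned to 1000 UMIs, the median number of detected genes was 550 in 61 neutrophil barcodes, 669.5 in barcodes with both S100a8 or S100a9 and C1q, 599 in monocyte-derived barcodes and 570 in T cell barcodes. The neutrophil median was the lowest of these, but the ranges overlapped, at 340 to 678 genes in neutrophil barcodes and 375 to 742 in T cell barcodes. Unthinned, the neutrophil median was 1239 genes.

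At the edges of the rule the barcodes formed a continuum. Among barcodes under the C1q limit, 16 held 5 to 9 UMIs of S100a8 and S100a9 and stayed out, while 10 held 10 to 19 UMIs and 16 held 20 to 49 UMIs and entered, and 37 held 50 or more. Among barcodes with enough S100a8 and S100a9, 5 lay between 40 and 50 C1q UMIs per 10000 and 6 between 50 and 60. A further 213 lay at 100 or more. The 241 barcodes that passed the S100 limit but not the C1q limit had a median of 24960 UMIs and are called C1q-carrying S100 barcodes here. T cell barcodes, which should make neither S100a8 nor S100a9, held 21.5 CPM of the pair at a median depth of 5406 UMIs, where CPM is the UMIs of a gene per 1000000 UMIs summed over a group of barcodes.

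Markers of other cell types split the members. At least 3 UMIs of the defining markers of another type were found in 14 of the 63, and these 14 held 53.3% of the UMIs but 10.4% of the S100a8 and S100a9 UMIs. Monocyte markers (Ccr2, F13a1, Fn1, Ms4a4c) reached that number in 10 barcodes, microglia markers (such as Tmem119 and P2ry12) in 8, T cell markers in 2, dendritic cell markers in 2, and astrocyte and endothelial markers in 1 each. Of these, 5 barcodes carried more than 1 other type, and 1 barcode of 36296 UMIs carried 5. Among the 14, 11 held a Cxcl2 UMI and 3 did not. Those 3, of 5963, 10476 and 14730 UMIs, held 15, 32 and 41 UMIs of the monocyte markers. They held 0 UMIs of Il1b and Cxcr2, and 3, 4 and 0 of Csf3r. The rule sets no limit on monocyte transcripts, and whether such barcodes are neutrophils or monocytes was not tested. A further 3 barcodes, called granule-rich here, held at least 10 UMIs of Camp, Ltf and Ngp together, none of them with markers of another type. They held 5.05% of the UMIs and 51.2% of the S100a8 and S100a9 UMIs. The 46 remaining barcodes held 41.7% of the UMIs and 38.4% of the S100a8 and S100a9 UMIs, with a median of 3006.5 UMIs and a median mitochondrial share of 0.142%. Summed levels of neutrophil barcodes below are for all 63, in which the 14 deep barcodes weigh more than their number. Levels of these 46 are given only where they are named, and the split was chosen after the values had been seen.

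**Figure D1:**
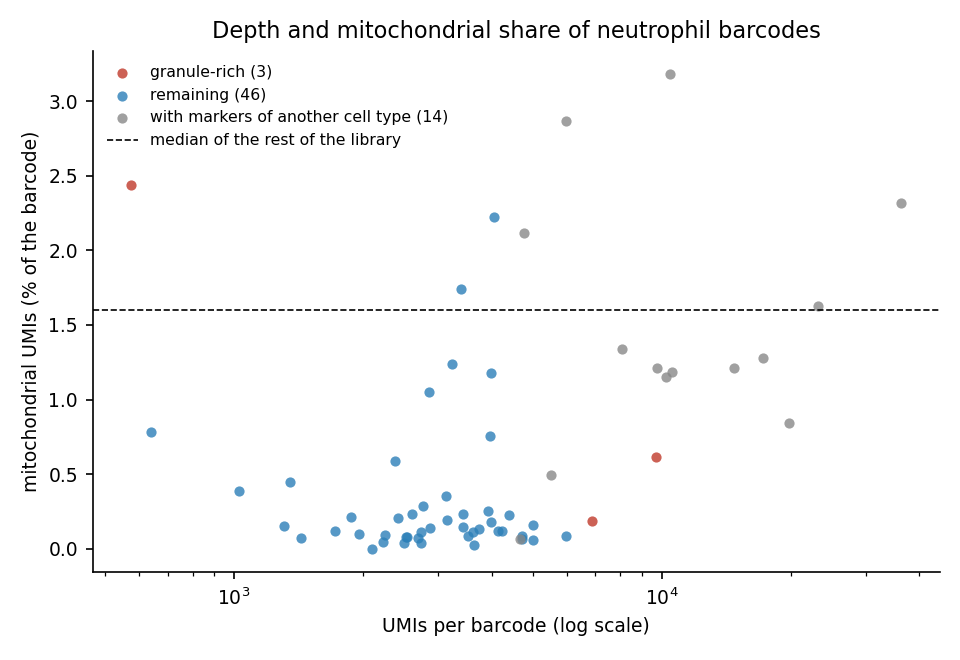
UMIs per barcode (x axis, log scale) against the mitochondrial share of its UMIs (y axis, percent) for the 63 neutrophil barcodes, coloured by subset, with the median of the other kept barcodes (1.60%) as a dashed line. Of the 63, 41 lie under 0.5%, of which 38 are remaining barcodes and 2 carry markers of another type.

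Both libraries share 27 barcode sequences, 2 of them among the 63. One is a granule-rich barcode with 575 UMIs, 53 of them S100a8 or S100a9, which also stands in the CD45- library with 938 UMIs and 65 of S100a8 or S100a9. The other has 8061 UMIs with 164 of S100a8 or S100a9 in the CD45+ library, against 2500 UMIs with 0 in the CD45- library. Scrublet, which scores doublets, called 177 of the 8662 deposited CD45+ barcodes, 1 of them among the 63. It called 2 of the 241 C1q-carrying S100 barcodes (0.830%) and 2.04% of the library where 6.93% was expected.

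The 15 neutrophil markers, S100a8 and S100a9 among them, summed to 53640 CPM in the 63, against 1188 CPM in the rest of the library. S100a8 and S100a9, which chose the barcodes, made up 36180 CPM and 364 CPM of these sums. The contrast was thus largely set by the rule. The markers outside the rule were uneven. Cxcl2 was found in 56 of the 63 barcodes, Il1b in 49 and at least 1 of them in 57. The granulocyte colony-stimulating factor receptor gene Csf3r was found in 46, the CXC chemokine receptor gene Cxcr2 in 32, and at least 1 of the pair in 47, including 34 of the 46 remaining barcodes. Camp, which encodes the granule peptide cathelicidin and was among the proposed markers, was found in 4, at more than 1 UMI only in the 3 granule-rich barcodes, so it does not mark the other 60. In 15 barcodes no UMI of Csf3r, Cxcr2, Camp, Ltf or Ngp was counted. These 15 had a median of 3386 UMIs and a median of 56 UMIs of S100a8 and S100a9, 13 of them had Cxcl2 or Il1b, 14 had Clec4d, and 3 carried markers of another type. Ly6g, the usual surface marker of mouse neutrophils, was found in 5 barcodes with 9 UMIs in all.

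Other granulocytes and blood were hardly seen. The 5 red blood cell markers had 0 UMIs in the 63 barcodes, which allows up to 8.81 CPM, the 5 eosinophil markers had UMIs of 1 gene at 5.88 CPM, and the 7 mast cell or basophil markers of 1 gene at 2.94 CPM. All 4 genes that define monocytes were found, at 1331 CPM in the 63 and 35.2 CPM in the 46 remaining barcodes, against 397 CPM in the rest of the library. The 6 genes that define microglia stood at 470.1 CPM in the 63, 275 CPM in the 46 and 2531 CPM in the rest, and those of T cells at 317 CPM, 162 CPM and 1153 CPM. The genes that define dendritic cells, astrocytes, oligodendrocytes and endothelial cells had 0 UMIs in the 46, which allows up to 21.1 CPM. The 46 leave out every barcode with at least 3 UMIs of another type's defining genes. Low levels of these genes in the 46 were therefore largely fixed in advance, and nothing is read from them. T cell barcodes, which should lack microglia genes, still held 146 CPM of the microglia genes.

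S100a8 (ENSMUSG00000056054, chr3:90668978-90670035) was found in all 63 barcodes and S100a9 (ENSMUSG00000056071, chr3:90692632-90695721) in 56. These neighbours on chromosome 3 chose the members, so their high level is no finding. Per barcode, S100a8 ranged over 2, 38 and 1601 UMIs (lowest, median, highest) and S100a9 over 0, 21 and 1994 UMIs. Which of the pair had more UMIs varied: S100a8 exceeded S100a9 in 39 barcodes, S100a9 exceeded S100a8 in 23, and 1 had equal numbers. The 7 barcodes without S100a9 had between 10 and 28 UMIs of S100a8. The 3 granule-rich barcodes each had more S100a9 than S100a8, with 1994, 1522 and 27 UMIs of S100a9 against 1601, 1140 and 26 UMIs of S100a8. T cell barcodes with a UMI numbered 159 of 2554 for S100a8 (6.23%) and 142 for S100a9 (5.56%), with at most 4 UMIs each.

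**Figure D2:**
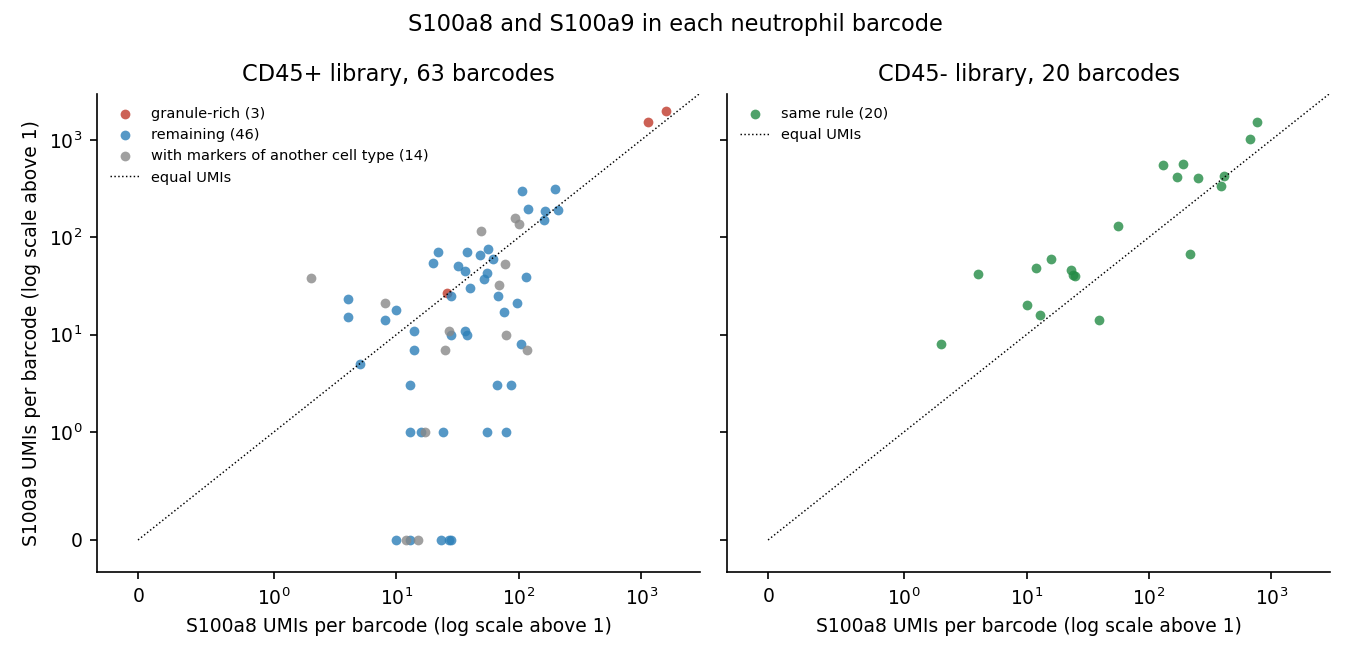
S100a8 UMIs (x axis) against S100a9 UMIs (y axis) in each barcode, both on a log scale above 1, for the 63 neutrophil barcodes of the CD45+ library (left, coloured by subset) and the 20 barcodes found by the same rule in the CD45- library (right). The dotted line marks equal numbers: S100a9 exceeds S100a8 in 23 of the 63 and in 17 of the 20.

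Transcripts of the granule proteins were concentrated in very few barcodes. Camp, Ltf (lactoferrin) and Ngp (neutrophilic granule protein) had 1079 UMIs in all, and a UMI of any was found in 6 of 63 barcodes (9.52%, 3.58 to 19.6%). Camp had 305, 214 and 11 UMIs in the 3 granule-rich barcodes, Ngp had 270, 198 and 3, and Ltf had 48, 26 and 0. Those 3 barcodes held 623, 438 and 14 UMIs of the group, while the other 3 barcodes with a UMI were near the level of single molecules. In T cell barcodes a UMI of any of the group was found in 7 of 2554 (0.274%, 0.110 to 0.564%). After thinning to 1000 UMIs, 2 of 61 neutrophil barcodes kept one (3.28%), and 0 of 45 remaining barcodes did (upper end of the interval 7.87%), against 2 of 46 before thinning. The 61 leave out the granule-rich barcode of 575 UMIs, which was too shallow, so its exclusion is part of the fall from 9.52%. After thinning to 500 UMIs the share in neutrophil barcodes was 4.76%.

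The earliest granule genes were low, with the 7 primary granule genes summed to 1630.5 CPM in the granule-rich barcodes, 16.5 CPM in those with markers of another type and 14.1 CPM in the 46 remaining, against 2.41 CPM in the rest of the library. Myeloperoxidase (Mpo), elastase (Elane) and cathepsin G (Ctsg) had 2, 5 and 6 UMIs, each within 1 barcode. Of the primary granule list, 5 of 7 genes had a UMI and only Prtn3, the gene for proteinase 3, reached the minimum of 20 UMIs over both groups needed for a ratio, at 47.0 CPM in neutrophil barcodes and 1.68 CPM in the rest (ratio 28.0, 15.6 to 47.3). The interval is 95% and exact, here and for every ratio below, and covers counting error only. Of 1094 genes compared between the granule-rich and the 46 remaining barcodes, 7.86% were at least 2-fold higher and 40.1% lower in the granule-rich ones. Against the 46 remaining barcodes, Lcn2 (lipocalin 2) stood at 19274 CPM in the granule-rich barcodes and 1430.5 CPM in the 46, Anxa1 (annexin A1) at 4076 and 183 CPM, Cd177 at 2213 and 14.1 CPM, and Wfdc21 at 5765 and 388 CPM. The reverse held for the inflammatory transcripts: the 3 barcodes had 1, 0 and 0 UMIs of Cxcl2, 0 of Il1b, 0 of Il1rn and 0 of Clec4d. Their Fth1 level was also low, at 1339 CPM, against 53343 CPM in the 46. These sums rest on 2 barcodes almost wholly, 1 of 9719 UMIs and 1 of 6879 UMIs.

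Among all genes compared between the 63 barcodes and the rest of the library, 1593 of 10835 (14.7%) were at least 2-fold higher and 2822 (26.0%) at least 2-fold lower, with a median log2 ratio of -0.36. For the 46 remaining barcodes these shares were 19.0% higher and 31.1% lower of 8606 genes, with a median of -0.39. The lists below are read beside these values and, since the same contrast chose the barcodes, nothing is read from their counts. Of 10 secondary granule genes compared, 10 were at least 2-fold higher (median log2 ratio 5.17), and of the 8 that could be compared in the 46 barcodes, 7 were. Haptoglobin (Hp) was the member most evenly spread, with a UMI in 36 barcodes at 831 CPM in neutrophil barcodes and 25.7 CPM in the rest (ratio 32.3, 28.4 to 36.6). Chil3, which monocytes also express, had 1381 CPM in the 63 but 162 CPM in the 46, against 100.4 CPM in the rest. Of 11 tertiary and secretory granule genes compared, 9 were higher and 1 was lower. Matrix metalloproteinase 9 (Mmp9), the gelatinase of tertiary granules, had 288 CPM in neutrophil barcodes and 7.06 CPM in the rest (ratio 40.8, 32.5 to 50.7), with a UMI in 23 barcodes. Annexin A3 (Anxa3) went the other way, at 141 CPM in neutrophil barcodes and 331 CPM in the rest (ratio 0.426, 0.314 to 0.565).

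Of 14 genes of the mature, circulating cell compared, 13 were at least 2-fold higher, with a median log2 ratio of 4.35 in the 63 and 5.26 in the 46. Csf3r (ENSMUSG00000028859, chr4:126024550-126044440) ranged over 0, 4.00 and 55.7 UMIs per 10000 (lowest, median, highest) among the 63, and Cxcr2 (ENSMUSG00000026180, chr1:74153989-74161246) over 0, 0.946 and 25.6. Csf3r was summed to 526 CPM in neutrophil barcodes and 78.2 CPM in the rest (ratio 6.72, 5.76 to 7.80) and Cxcr2 to 364 CPM in neutrophil barcodes and 12.02 CPM in the rest (ratio 30.3, 24.9 to 36.6). In T cell barcodes Csf3r was found in 3.37% and Cxcr2 in 0.470%, against 73.0% and 50.8% of the neutrophil barcodes. After thinning to 1000 UMIs the shares were 49.2% and 31.1% in neutrophil barcodes, against 0.857% and 0.204% in T cell barcodes. Barcodes with C1q and few S100 UMIs, called microglia barcodes here, had 87.3 CPM of Csf3r and 3.04 CPM of Cxcr2.

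The C-type lectin receptor gene Clec4d, which senses fungal and mycobacterial glycolipids, was the most widely found transcript outside the rule among the maturity genes. It was in 54 of 63 barcodes, ranged over 0, 12.4 and 143 UMIs per 10000, and was summed to 1393 CPM in neutrophil barcodes and 48.5 CPM in the rest (ratio 28.7, 26.0 to 31.6). Its partner Clec4e (Mincle) had 784 CPM in neutrophil barcodes and 39.8 CPM in the rest (ratio 19.7, 17.3 to 22.4). The decoy receptor gene Il1r2, which traps interleukin-1, had 435 CPM in neutrophil barcodes and 17.8 CPM in the rest (ratio 24.4, 20.4 to 28.9), and Mxd1, a MYC antagonist of terminal differentiation, had 867 CPM in neutrophil barcodes and 76.5 CPM in the rest (ratio 11.3, 10.0 to 12.7). Itgam, the gene for CD11b, which microglia express as well, did not pass the fold, at 502 CPM in neutrophil barcodes and 645 CPM in the rest (ratio 0.778, 0.666 to 0.905).

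Inhibitors of proteases were present at high level in part of the barcodes. Slpi, the secretory leukocyte protease inhibitor, had 2447 CPM in neutrophil barcodes and 49.9 CPM in the rest (ratio 49.1, 45.5 to 52.9) and 4580.3 CPM in the 46 remaining barcodes. It was in 41 of 63 barcodes, over 0, 5.05 and 491 UMIs per 10000, and 3 barcodes held 50.9% of its UMIs. Cstb (cystatin B), which inhibits lysosomal cathepsins, was in 56 barcodes at 3464 CPM in neutrophil barcodes and 308 CPM in the rest (ratio 11.3, 10.6 to 11.9). Of 5 protease inhibitor genes compared, 4 were at least 2-fold higher and Timp2 was not, at 156 CPM and 159.8 CPM. The stefin-related genes Cstdc4 and Stfa2l1 were in 16 and 14 barcodes at ratios of 79.8 (62.5 to 101) and 52.8 (35.9 to 76.0). These belong to a family of near-identical copies, so their reads may be split or shared.

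Receptors for chemoattractants were mostly high. Of 13 compared, 9 were at least 2-fold higher and 1 lower. The formyl peptide receptor genes Fpr1 and Fpr2, which guide neutrophils to bacterial and mitochondrial peptides, had 88.1 CPM in neutrophil barcodes and 2.06 CPM in the rest (ratio 42.8, 28.0 to 63.6) and 109 CPM in neutrophil barcodes and 4.02 CPM in the rest (ratio 27.0, 18.7 to 38.1). Ccrl2, an atypical receptor that presents chemerin, had 1389.6 CPM against 69.8 CPM in the rest, and Ccr1, a receptor for CCL3 and CCL5, 441 against 55.6 CPM. Cxcr4, the marrow retention receptor that ageing neutrophils regain, was in 35 barcodes at 276 CPM in neutrophil barcodes and 33.7 CPM in the rest (ratio 8.20, 6.60 to 10.1). The complement C5a receptor gene C5ar1 did not pass the fold, at 276 CPM and 222 CPM, and P2ry10 was lower, at 11.8 and 33.2 CPM.

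Cxcl2 (ENSMUSG00000058427, chr5:90903871-90905938), a CXCR2 ligand that draws in further neutrophils, was the highest of the cytokine and chemokine transcripts. It ranged over 0, 71.0 and 720 UMIs per 10000 among the 63 barcodes, and over 0, 97.6 and 720 in the 46. Its sum was 9066 CPM in neutrophil barcodes and 458 CPM in the rest (ratio 19.8, 19.1 to 20.5), with 15587 CPM in the 46. Cxcl2 UMIs were not confined to these barcodes: C1q-carrying S100 barcodes had 2318 CPM, monocyte-derived barcodes 783 CPM and T cell barcodes 295 CPM. Free RNA was not separated from the cells' own, so its part in these levels was not tested. Il1b (ENSMUSG00000027398, chr2:129364570-129371139), which encodes interleukin-1 beta, ranged over 0, 14.9 and 311 UMIs per 10000 in the 63 and was found in 38 of the 46. Its sum was 3384 CPM in neutrophil barcodes and 248 CPM in the rest (ratio 13.7, 12.9 to 14.5), with 941 CPM in monocyte-derived barcodes. The receptor antagonist gene Il1rn, which blocks interleukin-1, was in 44 barcodes at 1307 CPM in neutrophil barcodes and 64.0 CPM in the rest (ratio 20.4, 18.5 to 22.5). Il1f9, another member of the interleukin-1 family, was in 37 barcodes at 570.0 CPM in neutrophil barcodes and 14.1 CPM in the rest (ratio 40.6, 34.6 to 47.3).

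**Figure D3:**
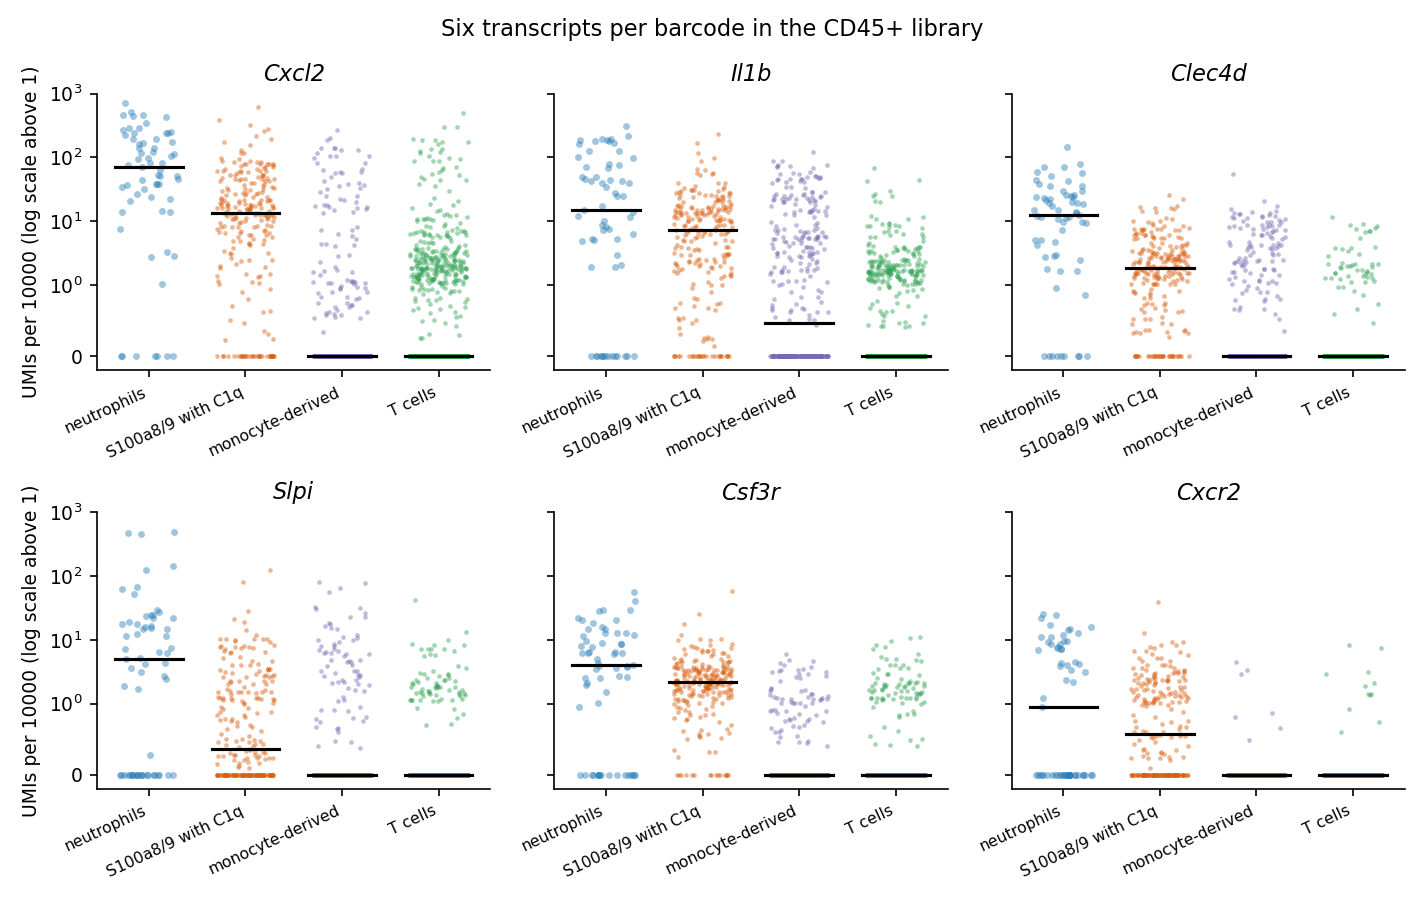
UMIs per 10000 (y axis, log scale above 1) of 6 transcripts in each barcode of the CD45+ library, in the 63 neutrophil barcodes, 241 C1q-carrying S100 barcodes, 366 monocyte-derived barcodes and 2554 T cell barcodes, with a bar at each median. The neutrophil medians stand at 71.0 for Cxcl2, 14.9 for Il1b, 12.4 for Clec4d, 5.05 for Slpi, 4.00 for Csf3r and 0.946 for Cxcr2, and the T cell medians at 0.

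The cytokine and chemokine lists were uneven. Of 12 cytokine genes compared, 7 were at least 2-fold higher in the 63 and 1 lower. Tumour necrosis factor (Tnf) had 279 CPM against 88.0 CPM in the rest, colony-stimulating factor 1 (Csf1) 358 against 35.1 CPM, and oncostatin M (Osm) 162 against 29.9 CPM. Il6, Il10 and Il12b had 0 UMIs in the 63, which allows up to 8.81 CPM. Of 15 chemokine genes compared, 6 were at least 2-fold higher and 5 at least 2-fold lower. The higher ones were Cxcl2, Cxcl3, Cxcl10, Ccl3, Ccl4 and Ccl6. Ccl4, an attractant of monocytes and T cells, had 3332 CPM in neutrophil barcodes and 579 CPM in the rest (ratio 5.76, 5.42 to 6.105) and Ccl3, a ligand of CCR1, had 1158 CPM in neutrophil barcodes and 231 CPM in the rest (ratio 5.01, 4.53 to 5.54). The lower ones were Ccl5, Ccl7, Ccl12, Ccl22 and Cxcl16. Ccl12, a monocyte attractant with 4525 CPM in microglia barcodes, had 552 CPM in neutrophil barcodes and 3159 CPM in the rest (ratio 0.175, 0.151 to 0.202), and Ccl5, a T cell product, had 132 CPM in neutrophil barcodes and 1301 CPM in the rest (ratio 0.102, 0.0741 to 0.136). The interferon-induced chemokine Cxcl10 was found in 15 barcodes, 3 of which held 70.1% of its UMIs.

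Receptors and early transcripts of inflammatory signalling were broadly higher. Of 13 pattern receptor genes compared, 10 were at least 2-fold higher, among them Cd14, the lipopolysaccharide co-receptor, at 852 CPM in neutrophil barcodes and 312 CPM in the rest (ratio 2.73, 2.42 to 3.07), and Trem1, an amplifier of myeloid activation, at 179 CPM in neutrophil barcodes and 9.22 CPM in the rest (ratio 19.4, 14.7 to 25.3). Of 13 genes of NF-kB and its feedback, 10 were at least 2-fold higher in the 63 and 12 in the 46. Nfkbia, which encodes the inhibitor IkB-alpha, was in 61 barcodes at 2444 CPM in neutrophil barcodes and 520.0 CPM in the rest (ratio 4.70, 4.38 to 5.03). Nfkb1 itself did not pass the fold, at 126 CPM and 117 CPM. Of 19 immediate early genes compared, 15 were at least 2-fold higher, with Dusp1, a phosphatase that ends p38 signalling, at 2015 CPM in neutrophil barcodes and 221 CPM in the rest (ratio 9.14, 8.45 to 9.86) and Ier3 at 1049 CPM in neutrophil barcodes and 130.3 CPM in the rest (ratio 8.05, 7.22 to 8.95). Dusp2 was the lowest of them, at 79.3 CPM and 109 CPM.

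Interferon-stimulated genes stood high almost throughout. Of 18 compared, 17 were at least 2-fold higher in the 63 (median log2 ratio 2.49) and 17 in the 46 (median 2.85). Isg15, a ubiquitin-like modifier, was in 45 barcodes at 2277 CPM in neutrophil barcodes and 305 CPM in the rest (ratio 7.48, 6.95 to 8.03). The antiviral enzyme gene Rsad2 had 1096 CPM in neutrophil barcodes and 75.2 CPM in the rest (ratio 14.6, 13.1 to 16.2) and Slfn4 had 919.6 CPM in neutrophil barcodes and 47.6 CPM in the rest (ratio 19.3, 17.2 to 21.7). Against the 366 monocyte-derived barcodes the list was closer, with 8 of 18 at least 2-fold higher, where 10.6% of all 8925 genes compared were. Ifitm3 had 3423 CPM in neutrophil barcodes and 5348 CPM in monocyte-derived barcodes, and Isg15 had 2277 and 1049.8 CPM.

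Ferritin transcripts were among the most abundant, and Fth1 had the highest level of all genes in the 63. Fth1 (ENSMUSG00000024661, chr19:9980598-9985098), the iron-storing heavy chain, was in 62 of 63 barcodes and summed to 35152 CPM in neutrophil barcodes and 8032 CPM in the rest (ratio 4.38, 4.30 to 4.46), and Ftl1, the light chain, to 20894 CPM in neutrophil barcodes and 2495 CPM in the rest (ratio 8.38, 8.18 to 8.58). In the 46 remaining barcodes Fth1 reached 53343 CPM and ranged over 22.5, 298 and 1585 UMIs per 10000. The cystine transporter gene Slc7a11, which supplies glutathione synthesis, was in 39 barcodes at 993 CPM in neutrophil barcodes and 43.0 CPM in the rest (ratio 23.1, 20.6 to 25.8). It was found in 0.940% of T cell barcodes. The glutathione synthesis gene Gclm had 323 CPM in neutrophil barcodes and 37.2 CPM in the rest (ratio 8.69, 7.12 to 10.5) and haem oxygenase 1 (Hmox1) 402 CPM in neutrophil barcodes and 59.9 CPM in the rest (ratio 6.72, 5.63 to 7.96). Of 15 genes of the NADPH oxidase and oxidant defence compared, 9 were at least 2-fold higher. Among oxidase subunits, Ncf4 had 341 CPM in neutrophil barcodes and 89.9 CPM in the rest (ratio 3.79, 3.13 to 4.56) and Ncf1 447 CPM in neutrophil barcodes and 204 CPM in the rest (ratio 2.19, 1.86 to 2.57), whereas Cybb, the catalytic subunit, had 320.2 CPM in the 63 but 35.2 CPM in the 46, against 81.6 CPM in the rest. Its level in the 63 thus lay mostly outside the 46 remaining barcodes.

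Ferritin levels varied widely across barcodes. Among the 46 remaining barcodes, the Spearman correlation of Fth1 with S100a9, both per 10000 UMIs, was -0.59, and with Malat1, a nuclear non-coding RNA, -0.53. The highest correlations with Fth1 were those of Riok3 (0.60), Ftl1 (0.59), Tnfrsf1b (0.56), Hilpda (0.56), Mob1a (0.55), Nceh1 (0.55), Eif5 (0.54), Clec4d (0.54), Cd274 (0.53) and Plin2 (0.53), where Hilpda and Plin2 coat lipid droplets and Cd274 encodes PD-L1. The points share 1 library and a fixed total per barcode, Fth1 was chosen for its level, and S100a9 is one of the transcripts that chose the barcodes, so nothing is read from its correlation. The 7 barcodes without S100a9 had between 185 and 1534 Fth1 UMIs per 10000. With Cxcl2 and Il1b together, across all 63 barcodes, genes with high correlations were Dusp1 (0.55), Nfkbia (0.55), Ccl3 (0.49), Ccrl2 (0.49), Srgn (0.48), Clec4e (0.46), Gadd45b (0.45), Ier5 (0.44) and Hcar2 (0.43). Among the 46 remaining barcodes the highest were Nfkbia (0.51), Srgn (0.46), Baz2b, Trem1, Cxcl3 and Pag1 (0.41 each), and the others named for the 63 were not among the 10 highest. For Camp, Ltf and Ngp together, above 0 in 6 barcodes only, the highest were Cd47 and Sun2 (0.41 each), and nothing is read from them.

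**Figure D4:**
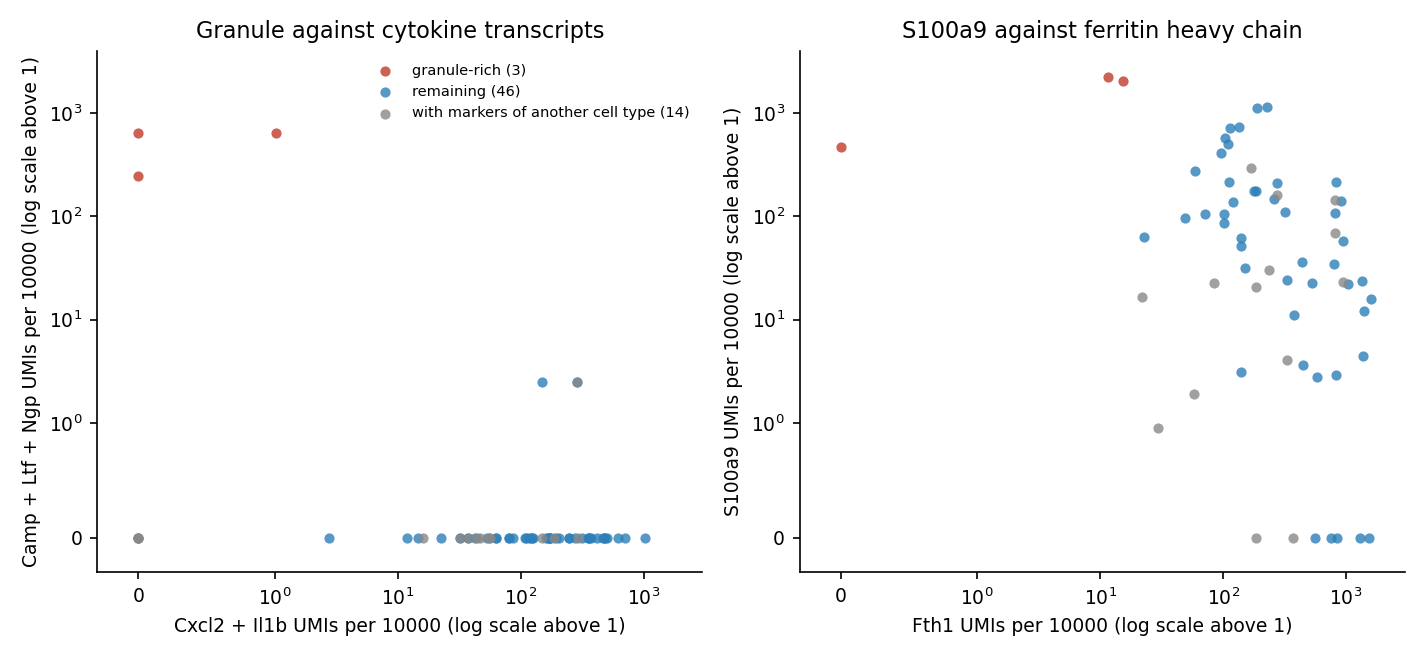
Left, Camp, Ltf and Ngp UMIs (y axis) against Cxcl2 and Il1b UMIs (x axis), right, S100a9 UMIs (y axis) against Fth1 UMIs (x axis), all per 10000 on a log scale above 1, in each of the 63 neutrophil barcodes, coloured by subset. The 3 granule-rich barcodes have at most 1.03 Cxcl2 UMIs and 0 Il1b UMIs per 10000 and the lowest Fth1 values, at 15.4, 11.6 and 0.

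Groups lower than in the rest of the library were those of dividing and antigen-presenting cells. Of 13 cell cycle genes compared, 11 were at least 2-fold lower and 0 higher (median log2 ratio -1.28), with Stmn1 at 17.6 CPM in neutrophil barcodes and 108 CPM in the rest (ratio 0.163, 0.0597 to 0.354) and Mcm3 at 14.7 CPM in neutrophil barcodes and 99.1 CPM in the rest (ratio 0.148, 0.0481 to 0.346). Mki67, a marker of dividing cells, did not pass the fold in the 63, at 23.5 CPM and 22.6 CPM, and stood at 349 CPM in the granule-rich barcodes. The low level was shared with monocyte-derived barcodes: the cell cycle list summed to 223 CPM in the 63, 218 CPM in the 46 and 169 CPM in them. T cell barcodes had 603 CPM and microglia barcodes 752 CPM. Against monocyte-derived barcodes, 3 of 9 cell cycle genes were at least 2-fold higher and 0 lower, where 10.6% of all genes compared were higher. MHC class II genes were lower mainly once other cell types were left out: 2 of 8 were at least 2-fold lower in the 63 and 6 of 7 in the 46, where the median log2 ratio was -2.67. The invariant chain gene Cd74 had 1378 CPM in the 63, 303 CPM in the 46 and 1359 CPM in the rest, and 1 barcode held 71.9% of its UMIs in the 63. The genes with the lowest ratios were Igkc, Gzmb, Gzma, Lpl, Calca, Mertk, Pros1, Nkg7, Ptgds and Ccl5, at ratios of 0.0169 to 0.102. Igkc is an immunoglobulin gene of B lineage cells, Gzma, Gzmb and Nkg7 are cytotoxic genes, and Mertk and Pros1 serve the uptake of dying cells by microglia and macrophages. Each of these except Ccl5 rests on 2 to 6 UMIs in the 63.

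**Figure D5:**
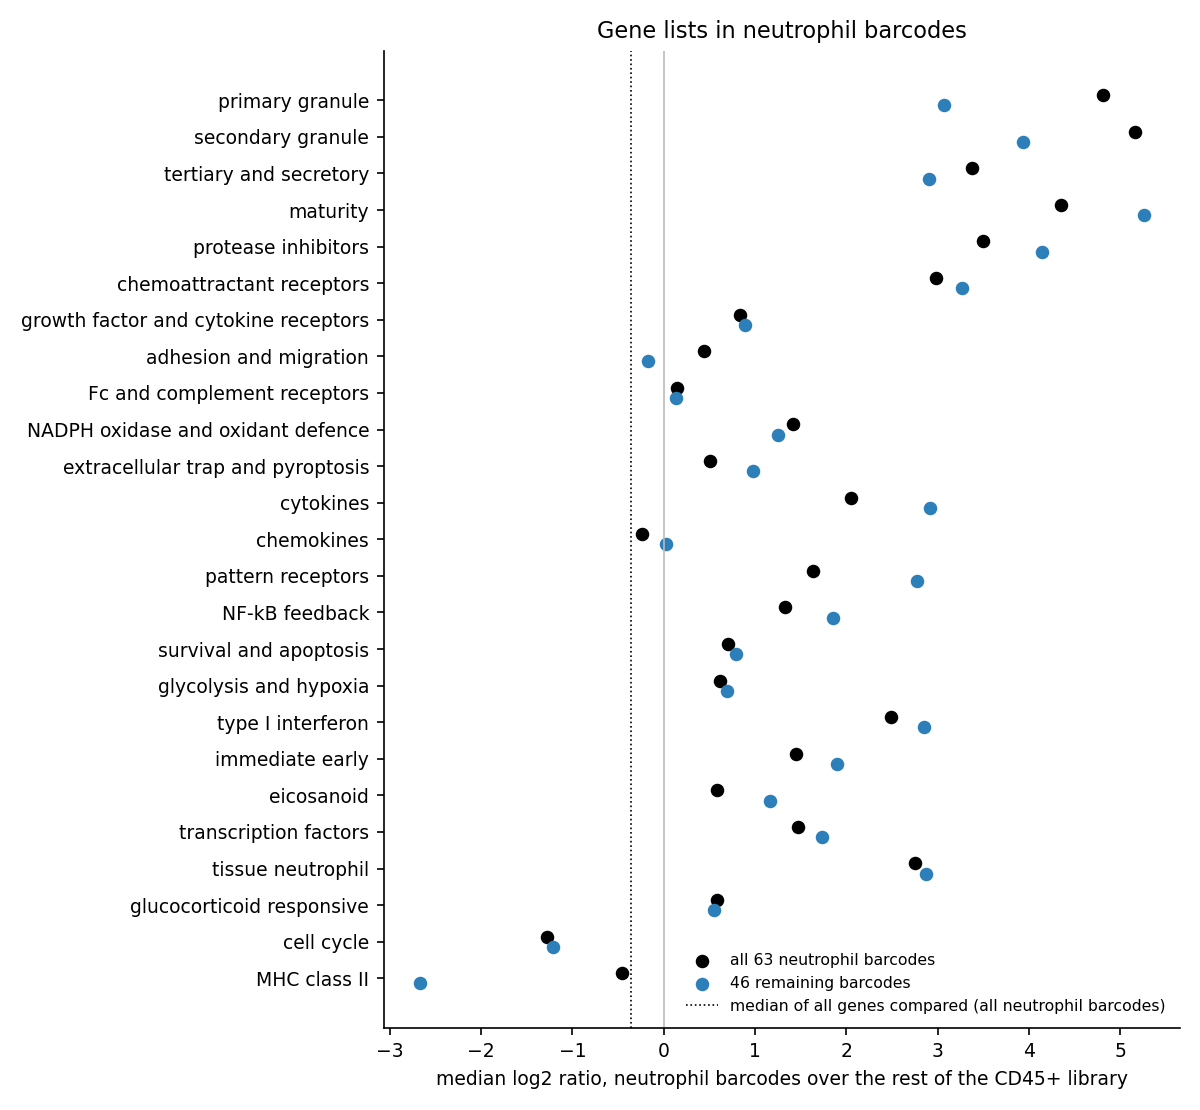
Median log2 ratio of each gene list in neutrophil barcodes over the rest of the CD45+ library (x axis), for all 63 barcodes (black) and the 46 remaining barcodes (blue), with the median of all genes compared (-0.36) as a dotted line. In the 63, the secondary granule list stands at 5.17, the primary granule list, with 1 gene compared, at 4.81, the maturity list at 4.35 and the cell cycle list lowest, at -1.28. In the 46, the MHC class II list is lowest, at -2.67.

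The neutrophil barcodes were also set against C1q-carrying S100 barcodes and against monocyte-derived barcodes of the same library. Of 9916 genes compared with the C1q-carrying S100 barcodes, 10.9% were at least 2-fold higher and 28.7% lower in the 63. S100a9 had 18629 CPM in neutrophil barcodes and 1823 CPM in C1q-carrying barcodes, Slpi 2447 and 206 CPM, Cxcl2 9066 and 2318 CPM, and Cxcr2 364 and 107 CPM. Against monocyte-derived barcodes without T or NK markers, Cxcr2 had 364 and 3.01 CPM (ratio 121, 66.9 to 241), G0s2 355 and 2.51 CPM, and Mmp9 288 and 0.502 CPM. Of 8925 genes compared with them, 17.2% were at least 2-fold lower, and all 8 MHC class II genes were among these, with H2-Ab1 at 447 CPM in neutrophil barcodes and 4427 CPM in monocyte-derived barcodes. These monocyte-derived barcodes were mixed: 92 of the 366 held at least 3 UMIs of genes that define dendritic cells, which summed to 209 CPM in them beside 2253 CPM of the genes that define monocytes, and Igkc stood at 2223 CPM. The part of such RNA in the MHC class II difference was not tested. Retnlg, a resistin-like gene of mature mouse neutrophils, had 138 CPM and 0.753 CPM. S100a8 and S100a9 set the monocyte-derived barcodes apart by the rule, whereas the C1q-carrying barcodes passed the same S100 limit and were set apart by C1q. The limit is in UMIs and the C1q-carrying barcodes were deeper, so the S100a9 levels are a description.

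The same rule found 20 barcodes among 13666 kept in the CD45- library (0.146%, 0.0894 to 0.226%), where leukocytes should be few. They carried at least 3 UMIs of another type's defining markers in 15 of 20, with astrocyte or oligodendrocyte markers in 14. Of 3542 genes compared between the 63 and these 20, 13.2% were at least 2-fold higher and 8.05% lower in the 63. Genes of the main cell types of each library differed with the library. The astrocyte glutamate transporter gene Slc1a2 had 0 UMIs in the 63 CD45+ barcodes and 1073 CPM in the 20 CD45- barcodes, beside 32.3 CPM in the rest of the CD45+ library and 3263 CPM in the rest of the CD45- library. H2-Aa and Tmem119 ran the other way, at 388 and 118 CPM in the 63 and 5.62 CPM each in the 20.

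Neutrophil genes differed between the libraries in both directions. Retnlg had 138 CPM in the 63 and 3309.9 CPM in the 20 (ratio 0.0417, 0.0303 to 0.0562), was found in 16 of 63 and in 14 of 20, and stood at 3.46 CPM in the rest of the CD45+ library and 0.481 CPM in the rest of the CD45- library. In the CD45- library 3 barcodes held 68.9% of its UMIs. Cxcl2 had 9066 CPM in the 63 and 18572 CPM in the 20, and Il1b 3384 and 7119.9 CPM. Per barcode the ranges overlapped, with Cxcl2 medians of 71.0 in the 63, 97.6 in the 46 and 128 in the 20, per 10000 UMIs. Il1b medians were 14.9, 37.3 and 68.1. Summed over the cytokine list, which holds Il1b, the levels were 5826 CPM, 10246 CPM and 10244 CPM in the 63, 46 and 20. Over the chemokine list, which holds Cxcl2, they were 16302.5 CPM, 26418 CPM and 30604 CPM. Slpi had 2447 CPM in the 63 and 708 CPM in the 20, but 3 barcodes held 50.9% of its UMIs in the 63 and 57.9% in the 20, it was found in 41 of 63 and 16 of 20, and its medians were 5.05 and 3.94 UMIs per 10000. Fth1 had 35152 and 19646 CPM. Since each library stands alone, these differences have no replicate check, and the free RNA of each library was not separated from the cells' own.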

How the data were processed

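Droplet libraries of CD45+ and CD45- brain cells, 1 of each, were analysed. The authors deposited counts of UMIs for 32285 genes in each barcode. Per the file headers the software was Cell Ranger 6.1.2, and mm10 is the build in the submitters' processing notes. Annotation release, cell calling and doublet removal are not given in the sources used. The assay reads 3' ends, which does not resolve isoforms, and near-identical copies may share reads.

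The mitochondrial limit removed 54 CD45+ barcodes. UMIs were summed over a group's barcodes as CPM. Intervals of ratios are exact (conditional binomial) and those of shares Clopper-Pearson, at 95% and for counting error only, tested on simulated counts. Genes with at least 20 UMIs over both groups were compared, and 0 UMIs were set at a floor of 3. With 1 library per group no p-value was computed. Monocyte-derived barcodes by the planned rule numbered 1243, of which 868 carried T cell markers, so the 366 without T or NK markers are reported, a choice made after seeing the data. Doublets were not removed, and leaving out Scrublet's calls was an alternative.

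The members and the 25 gene lists were chosen with earlier results of these data known. Symbols matched in the files were 8 of 9 for protease inhibitors, 15 of 16 for cytokines and 13 of 14 for pattern receptors. They were 20 of 21 for glycolysis and hypoxia, 18 of 19 for type I interferon and complete for the other lists. Named genes are the markers, list members with the highest level or furthest from their list's direction, the 20 highest ratios over the rest among genes in at least 20% of the 63 barcodes, the 10 lowest ratios among genes at 100 CPM or more in the rest, the 10 highest levels, and the 10 genes most correlated with Camp, Ltf and Ngp and with Cxcl2 and Il1b. Other named genes, such as those set against Fth1, the granule-rich barcodes or the CD45- library, were chosen after their values were seen, and a few genes that the rule names are not reported here. Gene positions were matched to GENCODE M21 by ID. Software was numpy 2.4.6, pandas 2.3.3, scipy 1.17.1, scanpy 1.11.5 and matplotlib 3.10.9 under Python 3.11.15.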

Additional observations from a re-analysis of the deposited data

How the results depend on the processing

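The counts and share below, the list sums and some gene ratios were recomputed under 15 alternatives. Another 5 alternatives were chosen after seeing the data. The genes were the markers, the 20 highest and 10 lowest ratios over the rest and the 10 highest levels. Other named genes and other kinds of value were not recomputed, and not every alternative applied to every value. The number of neutrophil barcodes was 37 with a minimum of 50 S100a8 and S100a9 UMIs and 33 with a C1q limit of 20 per 10000, against 63, and lay between 46 and 91 under the other limits and exclusions tried. Genes at least 2-fold lower than in the rest numbered 1693 with a C1q limit of 100 per 10000 and 4420 with each barcode weighted equally, against 2822. Genes at least 2-fold higher than in C1q-carrying S100 barcodes numbered 1931 with no minimum of UMIs per gene, against 1077. Genes at least 2-fold higher than in monocyte-derived barcodes numbered 2274 with no such minimum and 947 without T or NK barcodes, against 1424. The share of neutrophil barcodes with a Camp, Ltf or Ngp UMI was 3.28% after thinning to 1000 UMIs, against 9.52%. It was 4.76% after thinning to 500 UMIs. With a C1q limit of 20 it was 18.2%, and with at least 50 S100a8 and S100a9 UMIs 16.2%. Without the granule-rich barcodes it was 5%, and also without those of another type 4.35%. None of these values has a test, so the cause was not tested. The ratios of 41 recomputed genes and the sums of 17 lists that were past 2-fold kept their direction in 651 of 651 and 272 of 272 recomputed values. Past 2-fold they stayed in 650 and 270. The exceptions were Gzma and the NADPH oxidase and oxidant defence list with a C1q limit of 100, at log2 ratios of -0.68 and 0.82, and the cell cycle list with equal weights, at -0.95. Many of these genes were picked by their ratio in these data, S100a8 and S100a9 chose the barcodes, and the alternatives reuse the same library. Keeping the direction was therefore largely fixed in advance, and nothing is read from it. Sizes varied: over the recomputed genes and lists, 247 gene and 167 list values lay outside the counting interval of the reported value and 484 and 233 within it. With equal weights 29 gene and 24 list values lay outside, and with a C1q limit of 100 per 10000 36 and 23. No paired analysis was possible because each group has 1 library and no result comes from a test. With 63 barcodes of a median of 3616 UMIs, a transcript of few molecules per cell is found in few barcodes, and a gene with 0 UMIs in all of them may stand at up to 8.81 CPM.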

Other observations

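Transcription factors of the granulocyte lineage were uneven in the neutrophil barcodes, and the lists here stand beside the same 14.7% of genes at least 2-fold higher and 26.0% lower in the 63 barcodes. Of 15 factors compared, 9 were higher and 1 lower. Cebpb, the C/EBP factor of emergency granulopoiesis and inflammation, had 2747 CPM in neutrophil barcodes and 569.8 CPM in the rest (ratio 4.82, 4.51 to 5.14), and Litaf 508 CPM in neutrophil barcodes and 76.7 CPM in the rest (ratio 6.63, 5.66 to 7.71). Cebpe, the C/EBP factor of the granule stage, had 5 UMIs in 3 barcodes, with 291 CPM in the granule-rich barcodes and 0 UMIs in the 46 remaining barcodes. Cebpa was lower, at 17.6 CPM and 48.9 CPM, and Irf8, a monocyte and dendritic cell factor, had 259 CPM in the 63, 70.5 CPM in the 46 and 286 CPM in the rest.

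Survival genes differed by member. Of 17 genes of survival and apoptosis, 6 were at least 2-fold higher and 1 lower. Mcl1, on which neutrophil survival depends, was in 59 barcodes at 1425 CPM in neutrophil barcodes and 379 CPM in the rest (ratio 3.76, 3.43 to 4.12), the death receptor gene Fas had 106 CPM in neutrophil barcodes and 8.78 CPM in the rest (ratio 12.1, 8.37 to 16.9), and Bcl2 was lower at 47.0 CPM in neutrophil barcodes and 159 CPM in the rest (ratio 0.295, 0.169 to 0.479). The Bcl2a1 copies are near-identical, so their reads may be shared. Of 11 genes of extracellular trap formation and pyroptosis, 5 were higher and 1 lower, with the inflammasome sensor Nlrp3 at 120.5 CPM and 36.3 CPM and the adaptor Pycard at 323 CPM and 659 CPM. Padi4, which citrullinates histones in traps, had 5 UMIs in 3 barcodes.

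Of 11 genes reported in tissue neutrophils, 9 were at least 2-fold higher, among them Cd274 (PD-L1) at 323 CPM in neutrophil barcodes and 39.2 CPM in the rest (ratio 8.24, 6.75 to 9.96) and Arg2 at 109 CPM in neutrophil barcodes and 5.11 CPM in the rest (ratio 21.3, 14.8 to 29.9). Arg1 was found in 2 barcodes, 1 of which held 36 of 38 UMIs, and had 0 UMIs in the 46. Of 9 eicosanoid genes, 4 were higher and 3 lower, with Ptgs2, the inducible cyclooxygenase, at 247 CPM in neutrophil barcodes and 24.8 CPM in the rest (ratio 9.96, 7.91 to 12.4) and Ptgs1, the constitutive one, at 76.4 CPM in neutrophil barcodes and 339 CPM in the rest (ratio 0.225, 0.147 to 0.330). Of 20 glycolysis and hypoxia genes, 7 were higher and 0 lower, with the lactate exporter Slc16a3 at 106 CPM in neutrophil barcodes and 52.0 CPM in the rest (ratio 2.03, 1.42 to 2.82) and Gapdh at 1469 CPM and 1766 CPM. Of 9 glucocorticoid responsive genes, 4 were higher and 2 lower, with Tsc22d3 (GILZ) at 276 and 87.1 CPM and Fkbp5 at 70.5 and 100.5 CPM.

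Receptors and adhesion molecules were closer to the rest of the library. Of 17 growth factor and cytokine receptor genes, 7 were higher and 1, Csf1r, was lower, at 308 CPM in neutrophil barcodes and 1162 CPM in the rest (ratio 0.266, 0.217 to 0.321). Of 14 adhesion and migration genes, 5 were higher and 0 lower, with Cd44 at 291 CPM in neutrophil barcodes and 51.6 CPM in the rest (ratio 5.63, 4.57 to 6.87) and Selplg at 470.1 and 735 CPM. Of 10 Fc and complement receptor genes, 2 were higher and 0 lower, and Fcer1g, the shared signalling chain, had 3396 and 2112 CPM. Gdf15, a stress-induced cytokine gene, was in 16 barcodes at 291 CPM in neutrophil barcodes and 8.41 CPM in the rest (ratio 34.6, 27.7 to 42.8), and Asprv1, known as a skin protease, in 14 at 197 CPM in neutrophil barcodes and 3.76 CPM in the rest (ratio 52.3, 39.5 to 68.5). Among the 20 genes with the highest ratio found in at least 20% of the barcodes, Gm13822 and Gm20406, annotated as antisense, stood at ratios of 46.0 and 34.4, Ankrd33b at 36.6 and Chil1, a chitinase-like gene, at 34.4. Whether reads of the genes opposite Gm13822 and Gm20406 add to their counts was not tested. Among the 10 highest levels, Malat1 had 29035 CPM in the 63 barcodes and 23480.5 CPM in the rest, Tmsb4x 13905 and 18553 CPM, Actb 9601 and 10184 CPM, Gm42418 8784 and 5756 CPM, and Tpt1 5271 and 5128 CPM.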
